A study of Homo sapiens with 24 samples.

Results

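CD24 was followed through 24 poly(A) RNA sequencing libraries of 4 human cancer cell lines, as 1 gene of 16591 in the deposited expression table. It was chosen by its measured RNA levels in these libraries, because EPZ015666, a small-molecule inhibitor of the arginine methyltransferase PRMT5, lowered them in BT549 and OVCAR8 cells and not in COV362 or MDAMB436 cells. Those drug differences are therefore given as a description, without a test. Cells were given 5 µM EPZ015666 or the DMSO vehicle. BT549 and OVCAR8 were collected after 3 days and after 5 days, while COV362 and MDAMB436 were collected after 5 days alone. Each of the 12 groups had 2 libraries, called replicates A and B. The labels name BT549 and MDAMB436 as breast cancer lines and OVCAR8 and COV362 as ovarian cancer lines, and they name no further treatment or genetic change in any group. They do not say that replicates A and B were separate cultures, so SDs and p-values measure the spread between libraries, which may be technical.

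CD24 encodes a short, heavily glycosylated, mucin-like protein that is held on the outside of the cell membrane by a glycosylphosphatidylinositol (GPI) anchor. On tumour cells it binds the receptor Siglec-10 of macrophages and restrains phagocytosis, much as CD47 does through another receptor. In breast epithelium, low CD24 together with high CD44, the hyaluronan receptor, is the surface profile long used to sort stem-like cancer cells. PRMT5 places symmetric dimethyl marks on arginines of splicing proteins and histones, and EPZ015666 occupies its substrate pocket.

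CD24 (ENSG00000272398.5) lies on the minus strand of chromosome 6 from 106969831 to 106975627 in GRCh38, a span of 5797 bases, and no other annotated gene overlaps it. Its longest coding transcript has 3 exons and 2513 bases, of which 243, or 9.67%, are coding, stop codon included. The annotation holds 3 processed copies without introns. CD24P4 on chromosome Y differs from the CD24 coding sequence at 2 of 243 bases, CD24P2 on chromosome 15 at 14 of 216 aligned bases and CD24P1 on chromosome 1 at 31 of 222. Reads within the coding part can therefore match more than 1 place, while the copies have no row in the table and none of their values are used here. The coding sequences of CD24 and of its closest copy are shown because they mark where reads can be told apart, in GRCh38 and in 5′ to 3′ order, with the differing bases in capitals:
CD24, coding exons within chr6:106971661-106974646, minus strand: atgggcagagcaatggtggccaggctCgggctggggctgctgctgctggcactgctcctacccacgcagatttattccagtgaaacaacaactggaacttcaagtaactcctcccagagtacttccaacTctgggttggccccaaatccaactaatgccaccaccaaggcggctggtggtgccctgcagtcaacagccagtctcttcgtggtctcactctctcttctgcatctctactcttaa
CD24P4, chrY:18992467-18992709, minus strand: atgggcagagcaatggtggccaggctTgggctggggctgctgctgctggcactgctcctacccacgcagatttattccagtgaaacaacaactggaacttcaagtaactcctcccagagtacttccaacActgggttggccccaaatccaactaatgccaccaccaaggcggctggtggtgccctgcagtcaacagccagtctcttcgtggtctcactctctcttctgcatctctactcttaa

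Levels are in RPKM, reads scaled to the length of the gene and the depth of the library, and the deposited values correspond to reads divided by the whole genomic span of each gene, introns included. CD24 is compact, so its RPKM is high beside that of genes with long introns, and levels are compared here mainly between libraries. The libraries held 23.8 to 45.0 M recovered reads (median 27.8 M), and CD24 itself was covered by 348 to 27441 reads. Markers of the labelled tissues were uneven. Of the breast markers, the luminal transcription factor GATA3 stood at 0.0529 to 0.066 RPKM in MDAMB436 and at 4.17 to 5.00 RPKM in BT549, while TFAP2C, another transcription factor of breast epithelium, stood at 4.61 to 5.19 RPKM in MDAMB436 and at 1.43 to 2.20 RPKM in BT549. EGFR lay between 1.11 and 1.32 RPKM in both breast lines, but also at 1.03 to 1.37 RPKM in OVCAR8 and 1.6 to 2.3 RPKM in COV362. TFAP2C stood at 1.19 to 2.53 RPKM in COV362. KRT17, another breast marker, reached 9.77 RPKM in OVCAR8 and no more than 0.00802 RPKM in BT549. Of the ovarian markers, the Müllerian factor SOX17 stood at 41.6 to 61.0 RPKM in COV362 and at no more than 0.0527 RPKM in OVCAR8. In the breast line MDAMB436, SOX17 stood at 1.5 to 2.2 RPKM. EMX2, a further ovarian marker, stood at 1.90 to 2.79 RPKM in MDAMB436 and at 0 RPKM in OVCAR8. MSLN reached 48.0 RPKM in OVCAR8 and 22.9 RPKM in COV362, and PAX8 was low in both, with at most 0.354 RPKM in COV362 and 0.095 RPKM in OVCAR8. The 3 leukocyte and endothelial markers in the table summed to no more than 1.10 RPKM in any library.

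CD24 spanned a 75.4-fold range between DMSO cells of the 4 lines, against drug to DMSO ratios of 0.367 to 1.06 within them. In DMSO cells at day 5, OVCAR8 had 156 and 155 RPKM and BT549 had 135 and 134 RPKM. COV362 had 13.5 and 13.1 RPKM, and MDAMB436 had 1.97 and 2.16 RPKM. No pair of these groups overlapped, and the order OVCAR8, BT549, COV362, MDAMB436 does not follow the tissue of origin, since the highest line is ovarian and the lowest a breast line. Among all genes of a library, CD24 ranked 125th to 139th by RPKM in OVCAR8 and BT549 DMSO cells at day 5, 1044th and 1077th in COV362, and 4172nd and 4380th in MDAMB436.

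Differences between DMSO cells of the lines were not themselves used to choose CD24. The same DMSO libraries did enter the drug differences that were used, so the p-values below are not fully independent of the choice. The lines were compared with limma on log2(RPKM + 1) in 1 fit of all 24 libraries, with Benjamini-Hochberg adjustment over 6494 genes. OVCAR8 exceeded BT549 1.16-fold at day 5 (log2 difference 0.21 ± 0.05 SE, limma adjusted p = 0.00111) and 1.29-fold at day 3 (0.36 ± 0.05, limma adjusted p = 6.68e-06). At day 5, COV362 lay 6.44-fold above MDAMB436 (log2 difference 2.22 ± 0.05, limma adjusted p = 2.28e-15). BT549 lay 10.1-fold above COV362 and 65.0-fold above MDAMB436 (limma adjusted p = 1.53e-17 and 4.22e-20). OVCAR8 lay 11.7-fold above COV362 and 75.4-fold above MDAMB436 (limma adjusted p = 8.88e-18 and 2.31e-20). A called difference between lines is common in itself: the share of genes called was 84.2% for OVCAR8 over BT549 at either day and over COV362, 84.4% for BT549 over COV362, 87.3% and 85.8% for OVCAR8 and BT549 over MDAMB436, and 83.8% for COV362 over MDAMB436.

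**Figure D1:**
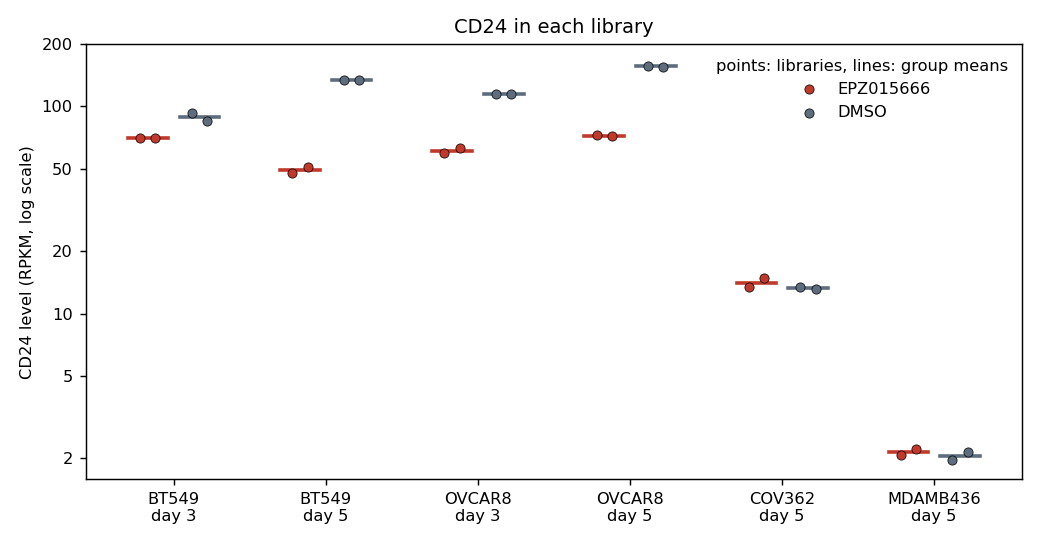
CD24 level in RPKM on a log scale in each of the 24 libraries, by line and day, with EPZ015666 cells left of DMSO cells. Points are libraries and lines are group means. EPZ015666 cells lie below DMSO cells in BT549 and OVCAR8 on both days, and the 2 groups overlap in COV362 and MDAMB436.

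In BT549 at day 5, CD24 stood at 47.6 and 51.0 RPKM in EPZ015666 cells, against 135 and 134 RPKM in DMSO cells. Both drug libraries were low and the groups did not overlap. The group means were 49.3 ± 2.40 and 134 ± 0.496 RPKM (SD, n = 2 each), a ratio of 0.367 and a log2(RPKM + 1) change of -1.43 ± 0.06 (SE). On this log2(RPKM + 1) scale CD24 ranked 9th from the lowest of the 6249 genes tested there. The scale understates falls of genes with low RPKM, so the rank does not order genes by ratio. MSLN, for example, had a lower ratio of 0.174 but a log2 change of -1.41.

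At day 3 in BT549, EPZ015666 cells had 70.4 and 70.0 RPKM of CD24 and DMSO cells had 93.2 and 85.4 RPKM. The groups did not overlap here either, although the gene was picked for a late fall in this line. The ratio was 0.786 and the log2 change -0.34 ± 0.06, which placed CD24 298th from the lowest of 6249 genes. The value moved with the DMSO libraries, as the log2 change was -0.28 without DMSO replicate A and -0.40 without DMSO replicate B.

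In OVCAR8 the lower level was already present at day 3, with 59.6 and 62.8 RPKM in EPZ015666 cells and 115 and 115 RPKM in DMSO cells. At day 5, EPZ015666 cells had 72.7 and 71.9 RPKM and DMSO cells 156 and 155 RPKM. The drug libraries were low and apart from the DMSO libraries on both days. The ratios were 0.532 at day 3 and 0.464 at day 5, with log2 changes of -0.90 ± 0.03 and -1.10 ± 0.03. CD24 ranked 36th and 31st from the lowest of 6328 genes.

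The other lines showed no such separation. COV362 had 13.4 and 14.8 RPKM of CD24 in EPZ015666 cells and 13.5 and 13.1 RPKM in DMSO cells, a ratio of 1.06 (log2 change 0.07 ± 0.05). MDAMB436 had 2.08 and 2.21 RPKM in EPZ015666 cells and 1.97 and 2.16 RPKM in DMSO cells, a ratio of 1.04 (log2 change 0.04 ± 0.05). In both lines the drug and DMSO libraries overlapped. The pattern across the 6 comparisons therefore divides the lines with high CD24, BT549 and OVCAR8, from the lines with low CD24. With 2 lines on each side, level, line and response cannot be told apart.

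**Figure D2:**
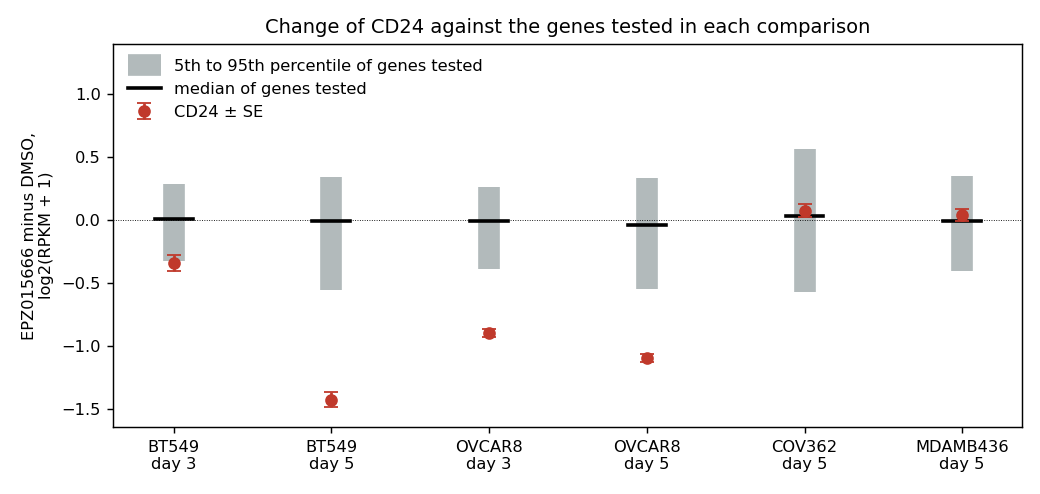
Change of CD24 with EPZ015666 relative to DMSO on the log2(RPKM + 1) scale, with its SE, in the 6 comparisons. Grey bars span the 5th to 95th percentile of the genes tested and black ticks mark their median. CD24 lies below the grey bar in BT549 at day 5 and in OVCAR8 on both days, at its lower edge in BT549 at day 3, and inside it in COV362 and MDAMB436.

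The background of these comparisons was wide. The share of genes called lower, at a limma adjusted p under 0.05, was 10.8% in BT549 at day 3, 22.7% in BT549 at day 5, 21.4% in OVCAR8 at day 3, 35.1% in OVCAR8 at day 5, 31.5% in COV362 and 23.2% in MDAMB436. The share called higher was 9.22%, 17.7%, 15.6%, 21.1%, 39.3% and 19% in the same order of comparisons. In OVCAR8 at day 5, 37.6% of called genes were higher with the values as deposited and 49.9% after median-of-ratios scaling of the libraries.

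The level in both drug and DMSO cells also shifted between the days. In EPZ015666 cells of BT549, CD24 averaged 49.3 RPKM at day 5 and 70.2 RPKM at day 3, a ratio of 0.702. In DMSO cells of the same line it averaged 134 RPKM at day 5 and 89.3 RPKM at day 3, a ratio of 1.50. EPZ015666 and DMSO cells of BT549 thus moved in opposite directions between the days, by -20.9 and 45.0 RPKM. In OVCAR8, EPZ015666 cells averaged 72.3 RPKM at day 5 and 61.2 RPKM at day 3 (ratio 1.18), while DMSO cells averaged 156 and 115 RPKM (ratio 1.35). Day 5 and day 3 libraries did not overlap in any of these 4 pairs. Against DMSO cells of day 3, CD24 in EPZ015666 cells of day 5 stood at 0.552 of the level in BT549 and at 0.629 in OVCAR8, so the ratio to the same day's DMSO cells contains both a lower drug level and a higher DMSO level. In RNA from whole cultures, fewer CD24-expressing cells and less CD24 RNA per cell cannot be told apart.

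CD44, the partner of CD24 in the stem-like surface profile, did not pass the threshold in BT549 and rose in the other lines at day 5. In BT549 at day 5 it had 9.34 and 9.75 RPKM in EPZ015666 cells and 9.07 and 9.26 RPKM in DMSO cells, a change that did not pass the threshold (limma adjusted p = 0.394). In COV362 it had 9.66 and 9.97 RPKM in EPZ015666 cells and 6.75 and 6.80 RPKM in DMSO cells, a 1.45-fold rise (limma adjusted p = 0.000355). CD44 also rose 1.32-fold in MDAMB436 (limma adjusted p = 0.0047) and 1.20-fold in OVCAR8 at day 5 (limma adjusted p = 0.00091). The drug change of CD44 was smaller in BT549 than in COV362 (BT549 minus COV362, log2 difference -0.42 ± 0.04), tested as an interaction in 1 fit of all libraries (limma adjusted p = 2.36e-06).

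The log2 ratio of CD44 to CD24 was higher in EPZ015666 cells than in DMSO cells in all 6 comparisons, although different genes moved it. CD24 was chosen for its fall in BT549 and OVCAR8, so the direction of the ratio in those lines is not separate evidence. It was -2.37 against -3.87 in BT549 at day 5 and -3.94 against -5.30 in OVCAR8 at day 5, where CD24 was lower. It was -0.52 against -0.97 in COV362 and 2.65 against 2.30 in MDAMB436, where CD44 was higher and CD24 overlapped. At day 3 it was -2.92 against -3.30 in BT549 and -3.87 against -4.74 in OVCAR8. Only MDAMB436 had more CD44 than CD24 per base of gene span, with or without the drug. As both genes are scaled by their whole span, the sign of the ratio is less informative than its difference between libraries.

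**Figure D3:**
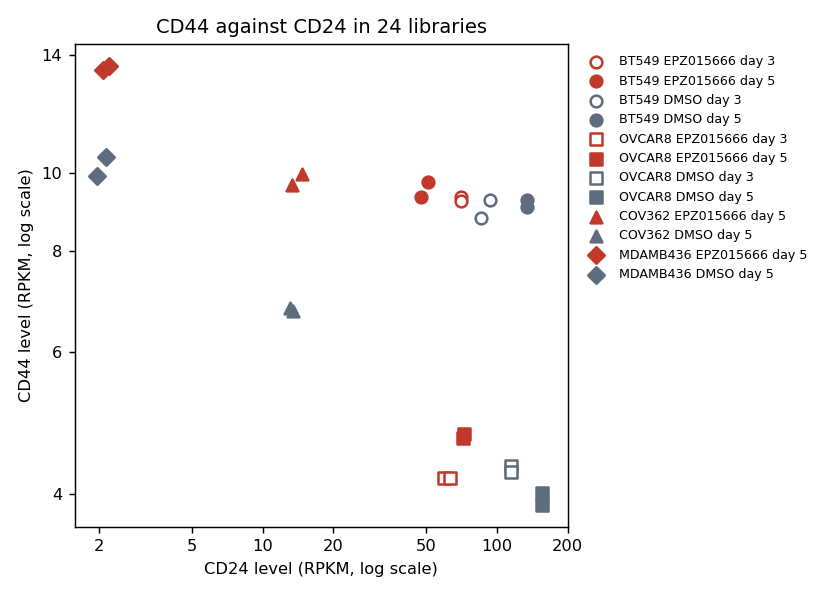
CD44 level against CD24 level in RPKM, both on log scales, in the 24 libraries. Shapes mark lines, red marks EPZ015666, grey marks DMSO, and open symbols mark day 3. EPZ015666 cells of BT549 and OVCAR8 sit left of DMSO cells, at lower CD24, while those of COV362 and MDAMB436 sit above them, at higher CD44.

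Among the stem and progenitor surface markers and their regulators, CD44 included, 12 of 18 had a row and 6 were tested in BT549 at day 5, of which 2 were higher and 2 lower, a count to be read, like those that follow, against the shares of all genes above. NT5E, the ecto-nucleotidase CD73 and itself GPI-anchored, had 4.46 and 4.44 RPKM in EPZ015666 cells and 1.62 and 1.62 RPKM in DMSO cells, a 2.75-fold rise (limma adjusted p = 1.82e-05). KLF4, a pluripotency and epithelial factor, fell to 0.583-fold in BT549 at day 5 (limma adjusted p = 0.000652) and to 0.717-fold in MDAMB436 (limma adjusted p = 0.00574), and in OVCAR8 at day 5 had a ratio of 1.03 (limma adjusted p = 0.784). BMI1, a Polycomb protein of self-renewing cells, rose 1.35-fold in BT549 and 1.76-fold in OVCAR8 at day 5 (limma adjusted p = 0.00211 and 0.000442), and 1.22-fold in COV362 (limma adjusted p = 0.0113), a call lost without DMSO replicate A. In OVCAR8 at day 5, 3 of 5 tested members were higher, CD44, NT5E and BMI1, and none lower. The list median was 0.02 in BT549 at day 5 and 0.11 in OVCAR8 at day 5, against -0.01 and -0.04 over all genes tested.

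CD47, which like CD24 restrains phagocytosis, was higher with the drug at day 5 in each of the 4 lines, including BT549 and OVCAR8 where CD24 was lower. CD47 had 4.51 and 4.54 RPKM in EPZ015666 cells of BT549 at day 5 and 3.60 and 3.83 RPKM in DMSO cells, a 1.22-fold rise (limma adjusted p = 0.0196) that no longer passed when any 1 of the 4 libraries was left out. It rose 1.16-fold in OVCAR8 at day 5, 1.21-fold in COV362 and 1.43-fold in MDAMB436 (limma adjusted p = 0.00529, 0.00353 and 0.00309). At day 3 it did not pass in BT549 or OVCAR8 (limma adjusted p = 0.079 and 0.402). The drug change of CD47 differed between OVCAR8 and MDAMB436 (interaction -0.21 ± 0.06, limma adjusted p = 0.00966), but between BT549 and COV362 the difference was -0.00045 ± 0.058 (limma adjusted p = 0.997). SIGLEC10, the macrophage receptor of CD24, is not analysed here.

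CALR, an endoplasmic reticulum chaperone that also serves as an engulfment signal at the surface, was lower together with CD24 in BT549 and OVCAR8. It had 427 and 440 RPKM in EPZ015666 cells of BT549 at day 5 and 748 and 739 RPKM in DMSO cells, a fall to 0.583-fold (limma adjusted p = 0.000119). It fell to 0.762-fold in OVCAR8 at day 5 (limma adjusted p = 0.000256), rose 1.20-fold in COV362 (limma adjusted p = 0.00121) and had a ratio of 0.988 in MDAMB436 (limma adjusted p = 0.704). B2M, the light chain of MHC class I, fell to 0.693-fold in BT549 at day 5 (limma adjusted p = 0.00769) and to 0.670-fold in COV362 (limma adjusted p = 0.000266), and rose 1.21-fold in OVCAR8 at day 5 (limma adjusted p = 0.0283). Without EPZ015666 replicate A the BT549 call of B2M was lost, and the OVCAR8 call was lost without DMSO replicate B or EPZ015666 replicate B. Over the 8 phagocytosis genes in the table, 1 was higher and 3 lower of 7 tested in BT549 at day 5, and 3 were higher and 2 lower of 6 tested in OVCAR8 at day 5. After median-of-ratios scaling 1 was lower in OVCAR8.

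CD24 reaches the surface on a GPI anchor, and the gene for a subunit of the enzyme complex that attaches the anchor fell in all 4 lines. GPAA1 of this transamidase had 33.6 and 33.3 RPKM in EPZ015666 cells of BT549 at day 5 and 86.3 and 93.4 RPKM in DMSO cells, a fall to 0.373-fold (limma adjusted p = 4.63e-05). Its ratio was 0.444 in OVCAR8 at day 5, 0.434 in COV362 and 0.582 in MDAMB436 (limma adjusted p = 3.41e-05, 9.97e-05 and 0.00223). GPAA1 was thus low also in the lines where CD24 did not separate. PIGT, another subunit of the transamidase, fell to 0.587-fold in BT549 and 0.800-fold in OVCAR8 at day 5 and to 0.863-fold in COV362 (limma adjusted p = 0.000238, 0.00125 and 0.00455), with a ratio of 0.860 in MDAMB436 (limma adjusted p = 0.0769). MPDU1, which serves the use of dolichol-linked mannose, rose 1.21-fold in BT549 at day 5 (limma adjusted p = 0.0201), a call lost when any 1 library was left out, and 1.37-fold in COV362 (limma adjusted p = 0.00276). In MDAMB436 it fell to 0.830-fold (limma adjusted p = 0.00966), a call lost without either EPZ015666 library. Of 23 genes of anchor synthesis and transfer in the table, 3 were higher and 4 lower of 10 tested in BT549 at day 5, and 0 were higher and 6 lower of 9 tested in OVCAR8 at day 5. The list medians were -0.16 and -0.24, against -0.01 and -0.04 over all genes tested. In COV362, 3 were higher and 4 lower of 9 tested, and in MDAMB436 3 were higher and 3 lower of 8. The list medians there were -0.04 and -0.06, against 0.03 and -0.01 over all genes tested.

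More of the other GPI-anchored surface proteins were lower than higher in BT549 at day 5 and in OVCAR8. All genes tested leaned the same way there, and single members differed in direction. Of 28 in the table, 3 were higher and 6 lower of 11 tested in BT549 at day 5, against 17.7% and 22.7% of all genes. In OVCAR8 at day 3, 1 was higher and 8 lower of 15 tested, against 15.6% and 21.4% of all genes. At day 5 in OVCAR8, 5 were higher and 9 lower of 15, against 21.1% and 35.1% of all genes. After median-of-ratios scaling 7 were lower there. The list median was -0.28 in BT549 at day 5, -0.17 in OVCAR8 at day 3 and -0.18 in OVCAR8 at day 5, on the log2(RPKM + 1) scale, against -0.01, -0.01 and -0.04 over all genes tested. In BT549 at day 3, 3 were higher and 3 lower of 11. In COV362, 5 were higher and 4 lower of 11, with a median of 0.08, and in MDAMB436 6 were higher and 3 lower of 14, with a median of 0.05, against 0.03 and -0.01 over all genes tested. MSLN, the mesothelioma antigen mesothelin, had 6.75 and 6.91 RPKM in EPZ015666 cells of OVCAR8 at day 5 and 48.0 and 46.7 RPKM in DMSO cells, a fall to 0.144-fold (limma adjusted p = 1.52e-05). It fell to 0.174-fold in BT549 at day 5 and, unlike CD24, to 0.213-fold in COV362 (limma adjusted p = 1.97e-05 and 9.69e-05).

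BST2, the interferon-induced tetherin, had 1.35 and 1.37 RPKM in EPZ015666 cells of BT549 at day 5 and 7.29 and 8.18 RPKM in DMSO cells (0.176-fold, limma adjusted p = 1.82e-05). It fell to 0.681-fold in OVCAR8 at day 5, 0.433-fold in COV362 and 0.670-fold in MDAMB436 (limma adjusted p = 0.000126, 0.000114 and 0.00293). LY6E, also interferon-inducible, fell in the same 4 comparisons, to 0.523-fold, 0.665-fold, 0.451-fold and 0.674-fold (limma adjusted p = 5.53e-05, 9.83e-05, 0.000106 and 0.0069). GPC1, a heparan sulfate proteoglycan, was unlike BST2 and LY6E in COV362, where its change did not pass the threshold. It fell to 0.670-fold in BT549 and 0.655-fold in OVCAR8 at day 5 and had a ratio of 1.06 in COV362 (limma adjusted p = 0.00535, 6.06e-05 and 0.0578), but it was 0.815-fold in MDAMB436 (limma adjusted p = 0.0149), a call lost without DMSO replicate A or EPZ015666 replicate A. LY6K, a cancer-testis antigen, rose 1.60-fold in BT549 at day 5 (limma adjusted p = 0.000611) and 1.76-fold in MDAMB436 (limma adjusted p = 0.0025), and fell to 0.753-fold in OVCAR8 at day 5 (limma adjusted p = 0.000317).

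**Figure D4:**
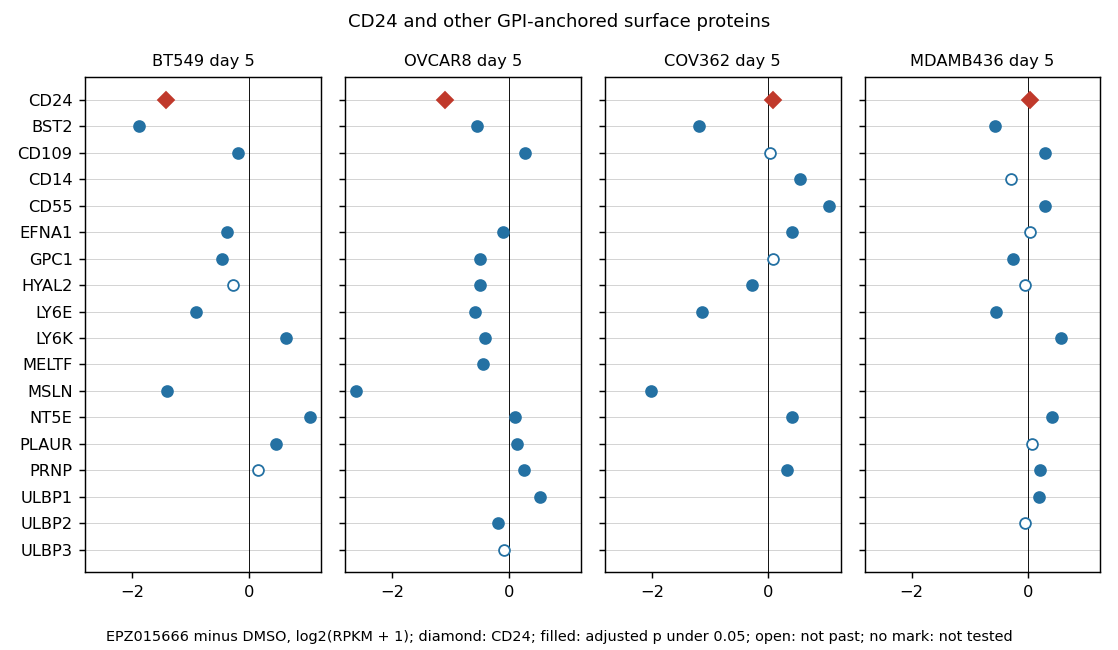
Change with EPZ015666 relative to DMSO at day 5, on the log2(RPKM + 1) scale, of CD24 (red diamond) and of the other GPI-anchored surface proteins tested in at least 1 comparison. Filled circles passed a limma adjusted p of 0.05, open circles did not, and genes without a mark were under the filter in that line. MSLN, BST2 and LY6E lie left of 0 wherever tested, while NT5E lies right of 0 in all 4 panels.

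Few glycan enzymes of the kind that modify CD24 passed the filter of a mean of at least 1 RPKM. As RPKM is scaled to the whole span, this filter can also remove long genes with many reads. Of 23 genes of mucin-type O-glycosylation and sialylation in the table, 0 were higher and 1 lower of 5 tested in BT549 at day 5, and 0 were higher and 2 lower of 4 tested in OVCAR8 at day 5. ST6GALNAC4, a sialyltransferase of O-glycans, fell to 0.684-fold in BT549 and 0.731-fold in OVCAR8 at day 5 (limma adjusted p = 0.00035 and 0.00159). It also fell to 0.762-fold in MDAMB436 (limma adjusted p = 0.0196), a call lost without EPZ015666 replicate A, and rose 1.11-fold in COV362 (limma adjusted p = 0.0332), a call lost without EPZ015666 replicate A or either DMSO library and after median-of-ratios scaling. ST3GAL1, a further sialyltransferase, was under 1 RPKM in BT549, OVCAR8 and COV362 and was not tested there. SRC, the kinase through which CD24 signals from lipid rafts, had ratios of 0.983 and 0.998 in BT549 and OVCAR8 at day 5 (limma adjusted p = 0.783 and 0.976). LYN, of the same kinase family, stayed under 1 RPKM in every library.

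Of the 13 Src family and raft genes in the table, 1 was higher and 4 lower of 8 tested in BT549 at day 5, and 2 were higher and 2 lower of 8 tested in OVCAR8 at day 5. The raft scaffold genes FLOT1 and FLOT2 fell with the drug in each of the 4 lines at day 5. Of the same list, CAV1 passed as lower in none of the lines at day 5, and CAVIN1 in BT549 and MDAMB436 alone. FLOT1 had 31.2 and 29.6 RPKM in EPZ015666 cells of OVCAR8 at day 5 and 45.9 and 45.3 RPKM in DMSO cells (0.666-fold, limma adjusted p = 8.08e-05). FLOT2 fell to 0.580-fold in BT549 and 0.734-fold in OVCAR8 at day 5 (limma adjusted p = 0.000173 and 0.000267). Its fall to 0.826-fold in MDAMB436 (limma adjusted p = 0.0145) was lost without EPZ015666 replicate A. CAV1 rose 1.20-fold in OVCAR8 at day 5 and 1.62-fold in COV362 (limma adjusted p = 0.00154 and 0.000264). It had ratios of 1.05 in BT549 at day 5 and 1.16 in MDAMB436 (limma adjusted p = 0.258 and 0.0532). CAVIN1 fell to 0.791-fold in BT549 at day 5 and rose 1.36-fold in COV362 (limma adjusted p = 0.00208 and 0.000321). CAVIN1 also fell to 0.859-fold in MDAMB436 (limma adjusted p = 0.0137), and had a ratio of 0.974 in OVCAR8 at day 5 (limma adjusted p = 0.398).

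Several transcription factors have been tied to CD24 in other systems. TWIST1, a mesenchymal factor reported to repress it, had 1.52 and 1.53 RPKM in EPZ015666 cells of BT549 at day 5 and 2.03 and 2.23 RPKM in DMSO cells, a fall to 0.716-fold (limma adjusted p = 0.00334). TWIST1 stayed under 1 RPKM in the other 3 lines. SNAI2, of the same mesenchymal programme, rose 1.52-fold in BT549 at day 5 (limma adjusted p = 0.00025) and 1.37-fold in OVCAR8 at day 5 (limma adjusted p = 0.0249), the second a call lost without DMSO replicate B or EPZ015666 replicate A. CTNNB1, the Wnt effector beta-catenin, had ratios of 0.941 and 1.06 in BT549 and OVCAR8 at day 5 (limma adjusted p = 0.145 and 0.0876). MYC had a ratio of 1.17 in BT549 at day 5 (limma adjusted p = 0.0607) fell to 0.763-fold in OVCAR8 at day 5 (limma adjusted p = 0.000853) and rose 1.33-fold in COV362 (limma adjusted p = 0.000381). EPAS1, a hypoxia-inducible factor, rose 1.59-fold in BT549 at day 5 and 2.16-fold in MDAMB436 (limma adjusted p = 0.000386 and 0.0018). HIF1A was listed at 0.00812 to 0.168 RPKM, but 3 other annotated genes overlap its span, so a low level and reads not assigned to it cannot be told apart. Of 14 such factors in the table, 2 were higher and 2 lower of 8 tested in BT549 at day 5, and 1 was higher and 2 lower of 5 tested in OVCAR8 at day 5.

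CD24 is often counted among epithelial genes, which the lines expressed to different degrees. The 16 epithelial genes in the table summed to 200.1 to 213.5 RPKM in EPZ015666 cells of OVCAR8 at day 5 and 238.1 to 242.9 RPKM in DMSO cells. In BT549 at day 5 the sums were 21.4 to 22.0 RPKM in EPZ015666 cells and 27.0 to 29.4 RPKM in DMSO cells. In COV362 the sums were 346.6 to 354 RPKM in EPZ015666 cells and 289.4 to 306.6 RPKM in DMSO cells, and in MDAMB436 52.3 to 56.2 RPKM and 58.6 to 62.5 RPKM in the same groups. Few genes carry these sums. In OVCAR8 at day 5, KRT18 alone averaged 157 RPKM in EPZ015666 cells and 183 RPKM in DMSO cells. In BT549 at day 5, MUC1 averaged 6.01 and 15.3 RPKM and KRT18 9.86 and 7.92 RPKM in the same groups. EPCAM, the epithelial adhesion molecule, was tested in COV362 alone and was at or under 0.00251 RPKM in BT549. MUC1, a transmembrane mucin, had 5.59 and 6.43 RPKM in EPZ015666 cells of BT549 at day 5 and 13.7 and 16.8 RPKM in DMSO cells, a fall to 0.394-fold (limma adjusted p = 0.00204). In COV362, MUC1 fell to 0.326-fold (limma adjusted p = 0.000123) while CD24 did not separate, and in OVCAR8 at day 5 its ratio was 0.929 (limma adjusted p = 0.484). The keratin genes KRT7, KRT8 and KRT18 rose 1.63-fold, 1.49-fold and 1.62-fold in COV362 (limma adjusted p = 0.00017, 0.000251 and 0.000544). In OVCAR8 at day 5 they fell to 0.792-fold, 0.903-fold and 0.855-fold (limma adjusted p = 0.000576, 0.0117 and 0.00617). KRT18 rose 1.24-fold in BT549 at day 5 (limma adjusted p = 0.0203). The spans of these keratin genes overlap other annotated genes. Of the epithelial genes, 2 were higher and 1 lower of 3 tested in BT549 at day 5. In OVCAR8 at day 5, 1 was higher and 5 lower of 7, or 3 lower after median-of-ratios scaling. In COV362, 7 were higher and 5 lower of 12, and in MDAMB436 1 was higher and 1 lower of 3. Of the breast tissue markers 2 were higher and 0 lower of 3 tested in BT549 at day 5, and of the ovarian tissue markers the 1 tested in OVCAR8 at day 5, MSLN, was lower.

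Few neighbours of CD24 on chromosome 6 passed the filter, and none of those tested passed the threshold as lower in BT549 or OVCAR8. The nearest with rows were C6orf203, 52.6 kb away, and BEND3, 89.6 kb away, and both stayed under 1 RPKM in every library. C6orf203 had 0.650 and 0.651 RPKM in EPZ015666 cells of BT549 at day 5 and 0.655 and 0.594 RPKM in DMSO cells. RTN4IP1, also under 1 RPKM and not tested, was lower without overlap in both lines on both days. Its day 5 ratios were 0.851 in BT549, 0.759 in OVCAR8, 0.918 in COV362 and 0.732 in MDAMB436. QRSL1, not tested in BT549 or OVCAR8, had day 5 ratios of 0.975 and 0.891 there. Higher without overlap at day 5 were CRYBG1 in BT549 (ratio 1.44) and BEND3 in OVCAR8 (1.31), neither tested. SEC63, a translocation factor of the endoplasmic reticulum, was the only gene within 1 Mb that was tested in BT549 and OVCAR8, and its ratios at day 5 were 0.982 and 0.992 (limma adjusted p = 0.803 and 0.87). Over the wider list of 17 genes of 6q21 in the table, 0 were higher and 0 lower of 3 tested in BT549 at day 5 and in OVCAR8 at day 5.

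The genes whose level was most like that of CD24 over the 24 libraries followed the differences between lines. Among 2348 genes with a mean of at least 5 RPKM, Pearson's r on log2(RPKM + 1) was highest for CNN3 (calponin 3, an actin-binding protein) at 0.982. It was 0.976 to 0.980 for YWHAZ, a 14-3-3 protein, and its processed copies YWHAZP2 to YWHAZP5, which can share reads and are not separate evidence. YWHAZ averaged 51.0 ± 0.747 RPKM in OVCAR8, 47.2 ± 0.109 in BT549, 14.7 ± 0.0590 in COV362 and 3.99 ± 0.148 in MDAMB436 DMSO cells at day 5 (SD, n = 2 each), the same order as CD24. CNN3 was likewise higher in BT549 and OVCAR8 than in COV362 and MDAMB436, but BT549 and OVCAR8 stood in the other order, with 22.5 ± 0.322 and 21.6 ± 0.436 RPKM in DMSO cells at day 5. EPZ015666 cells at day 5 averaged 17.7 ± 0.439 RPKM of CNN3 in BT549 and 21.4 ± 0.247 RPKM in OVCAR8, so the drug and DMSO libraries were apart in BT549 and overlapped in OVCAR8.

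After each library was centred on the mean of its line, which leaves drug and time, the most alike genes were another set. They were TMED4 (r = 0.951), HSP90B1 (0.949), CALR (0.947), PRDX5 (0.945), PLTP (0.934) and CYBA (0.930). TMED4 carries cargo between the endoplasmic reticulum and Golgi, HSP90B1 and CALR are chaperones of the endoplasmic reticulum, and PRDX5 is a peroxidase. PLTP transfers phospholipids between lipoproteins, and CYBA is the light chain of the cytochrome of NADPH oxidase. TMED4 averaged 25.8 ± 0.268 RPKM in EPZ015666 cells of BT549 at day 5 and 41.3 ± 0.0642 RPKM in DMSO cells, and 19.8 ± 0.966 and 32.2 ± 0.621 RPKM in the same groups of OVCAR8. PLTP averaged 9.35 ± 0.413 RPKM in EPZ015666 cells of BT549 at day 5 and 27.8 ± 0.429 RPKM in DMSO cells. HSP90B1 also shared the rise of DMSO cells with time in BT549, with 109 ± 7.80 RPKM at day 5 and 82.9 ± 5.20 RPKM at day 3. These genes were selected for their likeness over the same 24 libraries, so the r values describe and carry no p. The spans of PLTP, HSP90B1 and CALR overlap other annotated genes, so part of their reads may have been assigned elsewhere.

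**Figure D5:**
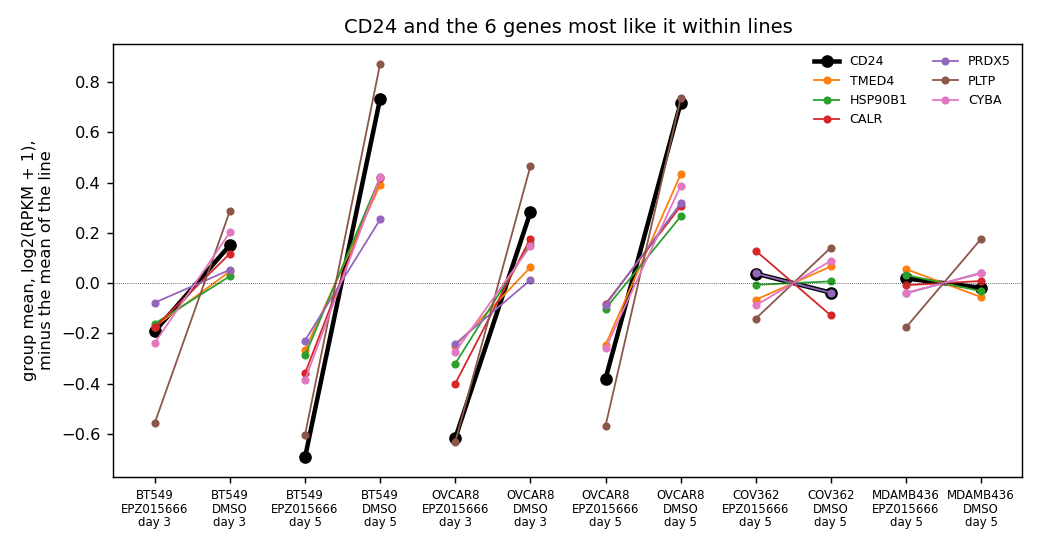
Group means of CD24 (black) and of the 6 genes most like it within lines, on the log2(RPKM + 1) scale after subtraction of each line's mean, with EPZ015666 left of DMSO in each pair. Lines join the groups of 1 comparison. All 7 genes are lower in EPZ015666 than in DMSO cells of BT549 and OVCAR8 on both days, and differ less and in mixed directions in COV362 and MDAMB436.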

How the data were processed

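RNA was extracted with the RNeasy Plus Mini Kit and libraries were made by Novogene, per the labels' protocols. The authors deposited RPKM values for 16591 gene symbols in 24 libraries, and featureCounts and GRCh38 are named in the submitters' processing notes. For the aligner, the annotation and all versions the record is not given in the sources used here. With GENCODE release 29 gene spans, 100% of values under 1000 reads came out whole within 0.02 read, and reads were recovered for 16562 genes, with 23.8 to 45.0 M per library. Drug comparisons used limma 3.58.1 in R 4.3.3 with a trended prior on log2(RPKM + 1), per line, for genes with a mean of at least 1 RPKM. Lines were compared in 1 fit of 24 libraries. Folds are ratios of mean RPKM, while log2 changes on this scale understate changes of low genes. Benjamini-Hochberg adjustment ran within each comparison, with a threshold of 0.05.

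CD24, the 12 gene lists (233 entries, 171 with a row) and the rules for naming genes were chosen with earlier results of these data known. Named genes were key genes of CD24 biology, in each list up to 3 members with the smallest adjusted p in BT549 and in OVCAR8 at day 5 that had at least 5 RPKM and groups without overlap, neighbours within 1 Mb, and the 6 genes most like CD24 by each of 2 measures. Of 58 genes checked, 31 share part of their span with another annotated gene (among them CD44, CALR, GPC1, LY6E, LY6K, PIGT, MPDU1, MUC1, FLOT1, FLOT2, TWIST1, CTNNB1 and BMI1). The strand setting of the counting is not known, so their levels are uncertain. The fits were tested on simulated data. Alternatives were another pseudocount (0.1 RPKM), no filter, a mean of at least 5 RPKM, median-of-ratios scaling, a replicate block, limma-voom on recovered reads, other sets of libraries in the fit and leaving out each library. Alignment of CD24 with its copies used Biopython 1.88 and transcripts of GENCODE release 29.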

Additional observations from a re-analysis of the deposited data

Results flagged for a closer look

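CD24 in EPZ015666 cells of BT549 was lower at day 5 than at day 3, by -20.9 RPKM, while in DMSO cells of BT549 it was higher at day 5 than at day 3, by 45.0 RPKM. Both drug libraries and both DMSO libraries of day 5 lay outside the range of day 3, in opposite directions. The difference between these changes was not tested, since the drug contrast was used to choose the gene.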

How the results depend on the processing

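All 77 recomputed CD24 differences between DMSO cells of the lines kept their direction and stayed past the threshold. Of 65 recomputed drug changes of CD24, 59 moved by less than the spread between replicates. This count includes settings that cannot move the change, which is a difference of group means. These were both filter settings, the replicate block and the fit of all 24 libraries, so their values are no sign of stability. In BT549 at day 5 the log2 change was -1.37 with limma-voom, and in OVCAR8 at day 5 it was -1.04 after median-of-ratios scaling. Leaving out 1 library gave -0.40 to -0.28 in BT549 and -0.94 to -0.86 in OVCAR8 at day 3. MDAMB436 has no CD24 value with a mean of at least 5 RPKM, because the gene is under that filter. The replicate letters do not mark shared cultures in the labels, and the correlation of A minus B deviations between drug and DMSO ran from -0.19 to 0.21 over comparisons. The replicate block gave 951 genes higher in BT549 at day 5. It could not change the CD24 value of -1.43 there, since each group has both letters.

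Counts of genes called depended on the processing, the cause was not tested beyond the number of genes entering, and the counts of higher genes follow in the order BT549 day 3, BT549 day 5, OVCAR8 day 3, OVCAR8 day 5, COV362 and MDAMB436. With a mean of at least 5 RPKM, which leaves fewer genes, they were 241, 412, 327, 358, 1035 and 464 higher and 275, 690, 646, 1132, 789 and 708 lower. Limma-voom gave 1470, 3398, 2768, 3698, 4236 and 3119 higher, and 1547 lower in BT549 at day 3, 4596 in COV362 and 2720 in MDAMB436. Without a filter 2713 were higher in OVCAR8 at day 5 and 3609 lower in COV362. A fit of all 24 libraries gave 1241 higher and 1170 lower in BT549 at day 3. Leaving out 1 library gave 235 to 501 higher and 384 to 672 lower in BT549 at day 3, with the lowest counts without EPZ015666 replicate B. It gave 506 to 662 higher and 881 to 988 lower in BT549 at day 5, 499 to 682 higher and 871 to 1065 lower in OVCAR8 at day 3, and 548 to 1000 higher and 721 to 1295 lower in MDAMB436, where counts were low without either EPZ015666 library. Over all alternatives, named genes gave 1933 values with the same call, 96 that lost and 53 that gained it, and none changed sign while called. Of the counts of list members, 966 stayed within 1.5 times and 222 did not. The depth of 348 to 437 reads limits CD24 in MDAMB436.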
